A study of Homo sapiens with 6 samples.

Results

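The transcripts described here are 10 chemokine genes, 7 of the CXC class (IL8, CXCL1, CXCL2, CXCL3, CXCL5, CXCL6 and CXCL16) and 3 of the CC class (CCL2, CCL5 and CCL20), picked by symbol from the 19009 genes of the deposited count table. IL8 is that table's symbol for CXCL8. They were measured by sequencing of poly(A) RNA in RCC10 cells, a line established from a human renal carcinoma of the clear cell type and grown in DMEM with fetal bovine serum. The 6 libraries fall into 3 groups of 2. HIF double-knockout cells (DKO) received guide RNAs by lentivirus under puromycin selection and are knockouts of HIF-1alpha and HIF-2alpha. VHL-reconstituted cells (VHL) received a lentivirus carrying VHL, and parental cells (WT) are the controls. A non-targeting guide and an empty vector are not among the groups analysed here, so effects of transduction, selection or clonal origin cannot be told apart from those of HIF loss or VHL. The labels do not say whether DKO cells are 1 clone or a pool, nor whether the 2 libraries of a group came from separate cultures. The p-values therefore rest on library-to-library spread that may be technical.

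Chemokines are small secreted proteins that direct the migration of leukocytes along gradients bound to heparan sulfate. IL8 and CXCL1, CXCL2, CXCL3, CXCL5 and CXCL6 form the neutrophil-attracting branch and act through the receptors CXCR1 and CXCR2. CCL2 recruits monocytes through CCR2, CCL5 recruits T cells and monocytes, CCL20 acts through CCR6, and CXCL16 is a membrane-anchored ligand of CXCR6. Their genes are classical targets of NF-kB and AP-1, and many of the mRNAs are short-lived because of AU-rich elements.

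Library totals ranged from 22248126 to 29929116 counts, so that 3 counts correspond to 0.101 to 0.132 CPM (counts scaled to TMM-adjusted library size). HIF1A was at 29.6 and 31.6 CPM in DKO cells, at 304 and 286 CPM in VHL cells, and at 69.5 and 72.9 CPM in WT cells. EPAS1, the gene of HIF-2alpha, was at 44.4 and 48.0 CPM in DKO, 363 and 369 CPM in VHL, and 352 and 349 CPM in WT cells. VHL itself was at 43.3 and 47.3 CPM in DKO, 652 and 723 CPM in VHL, and 38.8 and 39.5 CPM in WT cells. PAX8, the renal lineage factor, was at 297 to 416 CPM in the 6 libraries. CA9, a HIF target widely used as a marker of this tumour type, had 1 count in total. Other renal carcinoma markers differed between the groups. In DKO, VHL and WT cells PAX2 averaged 15.4, 1.11 and 1.67 CPM, KRT7 3.53, 11.5 and 0.624 CPM, and CA12 159, 2.29 and 460 CPM. Of 10 such markers 6 were higher and 2 lower in each line against WT. Over all genes 54.1% were called in DKO and 54.2% in VHL against WT. Among leukocyte markers PTPRC and CD3E were at 0 in every library, as were the endothelial markers PECAM1, KDR and ERG and the fibroblast collagen COL3A1. Other endothelial markers were not at 0. TEK averaged 0.219 CPM in DKO, 1.75 CPM in VHL and 0.423 CPM in WT cells, and VWF had 3, 2 and 8 counts in these groups. The summed level of the 8 leukocyte markers in the table was 23.5 to 26.0 CPM in DKO, 25.2 to 27.7 CPM in VHL and 61.3 to 65.8 CPM in WT cells. Most of it is CD68, at 64.5 and 60.3 CPM in WT cells, while ITGAM averaged 2.55 CPM in DKO and 0.518 CPM in VHL against 0.625 CPM in WT cells, and CSF1R averaged 0.341 CPM in DKO and 1.04 CPM in VHL against 0.301 CPM in WT cells. Because these are bulk libraries, fewer cells making a transcript and less of it per cell cannot be told apart.

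The windows upstream of the chemokine genes are shown first. IL8, CXCL2 and CXCL3, which rose in both engineered lines, share a stretch of sequence there. The same stretch stands in the windows of CXCL1, CXCL5 and CXCL6, which were at or under 3 counts in each group. CCL5 also rose in both lines, but its window was not used. A link between the stretch and the levels was not tested. RefSeq promoter windows (GRCh38.p14, 250 bases before each transcription start) were matched for 7 of the 10 members, and those of CXCL16, CCL2 and CCL5 were not used here. The longest run of letters common to the windows of IL8, CXCL2 and CXCL3 is the 9-base GGAATTTCC. It was picked from these 3 windows, so its presence in them is no finding. The last 120 bases before the start are printed 5′ to 3′ on the strand of the gene. Capitals mark that run, and in CCL20, which lacks it, the match to the longer NF-kB consensus.
IL8, chr4:73740449-73740568, plus strand: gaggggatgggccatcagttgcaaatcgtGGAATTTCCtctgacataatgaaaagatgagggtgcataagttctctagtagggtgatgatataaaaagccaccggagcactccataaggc
CXCL2, chr4:74099196-74099315, minus strand: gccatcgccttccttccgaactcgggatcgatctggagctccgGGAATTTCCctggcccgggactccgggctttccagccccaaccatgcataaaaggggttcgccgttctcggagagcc
CXCL3, chr4:74038690-74038809, minus strand: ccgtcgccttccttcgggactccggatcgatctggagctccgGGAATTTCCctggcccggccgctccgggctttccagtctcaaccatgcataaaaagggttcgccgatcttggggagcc
CXCL1, chr4:73869273-73869392, plus strand: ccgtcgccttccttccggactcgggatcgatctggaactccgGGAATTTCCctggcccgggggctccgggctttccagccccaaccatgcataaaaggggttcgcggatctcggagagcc
CCL20, chr2:227813722-227813841, plus strand: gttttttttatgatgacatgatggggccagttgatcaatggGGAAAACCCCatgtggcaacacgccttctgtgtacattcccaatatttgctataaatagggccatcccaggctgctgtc

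On either strand the run occurs in 6 of the 7 member windows (IL8, CXCL1, CXCL2, CXCL3, CXCL5 and CXCL6) and in 145 of 35116 RefSeq windows of the same length, or 0.413%. Its presence in IL8, CXCL2 and CXCL3 was fixed by how it was picked, so 6 of 7 is no measure of enrichment. The run lies at -91 to -83 in IL8 and at -77 to -69 in CXCL2, counted from the start. The 10-base NF-kB consensus, which overlaps the run wherever both occur, matches 6 of the 7 windows (IL8 is the exception) and 9.96% of all windows. The AP-1 element TGANTCA was found in IL8, at -137 to -131, and in 6.57% of all windows. TATAAA was found in IL8 and CCL20, against 10.7% of all windows. The HIF core ACGTG was in 0 of the 7 windows and in 18.5% of all, and GCGTG was in CXCL5 and CCL20 and in 32.2% of all. CXCL1 and CXCL2 are identical at 93.4% of aligned positions over the printed 120 bases, CXCL1 and CXCL3 at 90.8%. CXCL5 and CXCL6, which are not printed, are identical at 90.9% over the same span. These windows are therefore not independent of each other. A match is a description of letters, and these libraries hold no measure of factor binding.

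**Figure D1:**
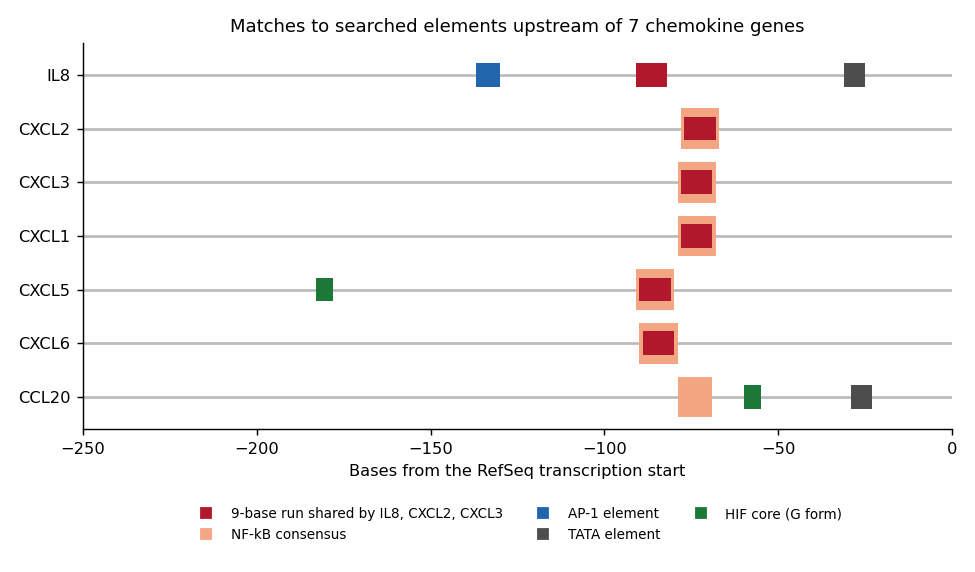
Positions of matches in the 250 bases before the RefSeq start of 7 chemokine genes (x axis, bases from the start; a row per gene; coloured blocks are the elements named in the legend, on either strand). The 9-base run stands between -91 and -69 in 6 genes, and CCL20 has the longer NF-kB consensus without that run at -79 to -70.

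Among the 10 members, 7 had more than 3 counts in some group, and CXCL1, CXCL5 and CXCL6 did not. CXCL1 had 2 and 0 counts in DKO cells, 0 and 0 in VHL cells, and 0 and 1 in WT cells. CXCL5 had 3 counts in total and CXCL6 had 2. The neutrophil branch was therefore read from IL8, CXCL2 and CXCL3. Of the 50-base stretches of GENCODE release 29 transcripts, 5.73% of those of CXCL1, 9.24% of those of CXCL2 and 5.26% of those of CXCL3 also occur in another of these 3 genes. At 100 bases the shared part was 0% for each. The sources used here give neither the read length nor how shared reads were handled.

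IL8 had the highest level per exon length of the neutrophil chemokines in each group, and rose in both engineered lines. It stood at 20.3 and 23.5 CPM in DKO cells, 14.6 and 15.7 CPM in VHL cells, and 3.27 and 2.60 CPM in WT cells, with no overlap between any of the groups. The means were 21.9 ± 2.23 CPM in DKO, 15.2 ± 0.799 CPM in VHL and 2.94 ± 0.471 CPM in WT cells (SD, n = 2). The fold change was 7.34 for DKO against WT (log2 2.88 ± 0.14, SE; adjusted p = 1.3e-18, edgeR) and 5.09 for VHL against WT (log2 2.35 ± 0.15; adjusted p = 7.7e-16, edgeR). Compared directly, DKO cells held 1.44-fold more IL8 than VHL cells (adjusted p = 2.3e-05, edgeR).

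CXCL2, a close relative of CXCL1 that attracts neutrophils, followed the same order of groups. Its levels were 6.56 and 6.60 CPM in DKO cells, 3.54 and 3.79 CPM in VHL cells, and 0.640 and 0.573 CPM in WT cells. This was a 10.7-fold rise in DKO against WT (log2 3.42 ± 0.25; adjusted p = 1.2e-15, edgeR) and a 5.96-fold rise in VHL against WT (log2 2.58 ± 0.26; adjusted p = 1.8e-11, edgeR). DKO cells exceeded VHL cells 1.80-fold (adjusted p = 2.9e-06, edgeR).

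CXCL3, the third detected gene of this branch, was nearly silent in WT cells. It had 28 and 18 counts in DKO cells and 27 and 35 in VHL cells, against 1 and 1 in WT cells. The ratio of levels was 21.9 for DKO against WT, with a 95% counting interval of 5.73 to 186, and 29.0 for VHL against WT, with an interval of 7.70 to 245 (adjusted p = 1.4e-06 and 8.5e-08, edgeR). DKO against VHL did not pass (log2 -0.41 ± 0.31; adjusted p = 0.29, edgeR). The nearest libraries of these groups were at 0.957 CPM in DKO and 0.966 CPM in VHL cells.

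CCL5, a chemokine for T cells and monocytes that is also induced by interferon signalling, rose in both lines and further in VHL cells. It was at 2.56 and 2.60 CPM in DKO cells, 9.69 and 11.1 CPM in VHL cells, and 0.438 and 0.441 CPM in WT cells. Each group was separate from the other two. CCL5 was 5.83-fold higher in DKO against WT (log2 2.54 ± 0.31; adjusted p = 8.5e-10, edgeR) and 23.5-fold higher in VHL against WT (log2 4.55 ± 0.30; adjusted p = 1.1e-18, edgeR). The difference between the lines was itself 4.03-fold, lower in DKO (adjusted p = 7.0e-14, edgeR), the reverse of IL8 and CXCL2. Of the 50-base stretches of CCL5 transcripts 13.9% also occur in transcripts of other genes, 288 in all, and of the 100-base stretches 6.29%, so part of its count may be shared.

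CCL20, which attracts CCR6-bearing lymphocytes and dendritic cells, was at or below 3 counts in VHL cells and well above that in the other groups. It had 80 and 56 counts (2.74 and 2.18 CPM) in DKO cells, 0 and 3 counts in VHL cells, and 85 and 79 counts (2.86 and 3.48 CPM) in WT cells. The VHL level was 58.4-fold lower than the WT level, with a counting interval of 19.6 to 286 (adjusted p = 7.6e-13, edgeR). DKO against WT did not pass (log2 -0.35 ± 0.20; adjusted p = 0.15, edgeR). The nearest libraries of these groups were at 2.74 CPM in DKO and 2.86 CPM in WT cells. The DKO level was 46.1 times the VHL level, with an interval of 15.4 to 226 (adjusted p = 9.8e-12, edgeR). The size of both differences rests on the VHL libraries: without VHL replicate 1 the log2 fold change was -4.81 for VHL against WT and 4.47 for DKO against VHL, in place of -5.76 and 5.41. Without VHL replicate 2 the VHL library left is at 0 counts, and the fitted values of -9.41 and 9.07 then depend on the prior count.

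CCL2, the main monocyte chemokine, moved in opposite directions. It had 7 and 4 counts (0.239 and 0.155 CPM) in DKO cells, 35 and 45 counts (1.25 and 1.61 CPM) in VHL cells, and 24 and 14 counts (0.809 and 0.617 CPM) in WT cells. CCL2 fell 3.56-fold in DKO against WT (log2 -1.83 ± 0.52; adjusted p = 0.0012, edgeR). It was 7.01-fold lower in DKO than in VHL cells (adjusted p = 3.4e-07, edgeR). The 1.97-fold rise in VHL against WT passed (log2 0.98 ± 0.31; adjusted p = 0.0068, edgeR), but the call was lost without VHL replicate 2 (adjusted p = 0.093), without WT replicate 2 (adjusted p = 0.080) and in DESeq2 (adjusted p = 0.13). Of the 10 fibroblast markers 8 are in the table, with summed levels of 6.19 to 6.37 CPM in DKO, 26.2 to 27.4 CPM in VHL and 18.2 CPM in both WT libraries. Most of that sum is COL1A1 and PDGFRB, which were lower in DKO than in WT cells, whereas THY1 averaged 2.44 CPM in DKO and 3.04 CPM in VHL against 0.746 CPM in WT cells. Of the 7 markers tested 1 was higher and 2 were lower in DKO against WT, and 2 were higher and 0 lower in VHL against WT. Over all genes 54.1% and 54.2% were called. The part of these markers in the CCL2 values was not tested.

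CXCL16 had few counts, with 5 and 8 in DKO cells, 11 and 7 in VHL cells, and 5 and 11 in WT cells. The groups overlapped, and the log2 fold changes were -0.37 ± 0.66 for DKO against WT and 0.06 ± 0.61 for VHL against WT (adjusted p = 0.66 and 0.97, edgeR). Exons of CXCL16 overlap those of MED11 on the other strand in GENCODE release 29, and with no statement on strand in the sources its counts are uncertain.

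**Figure D2:**
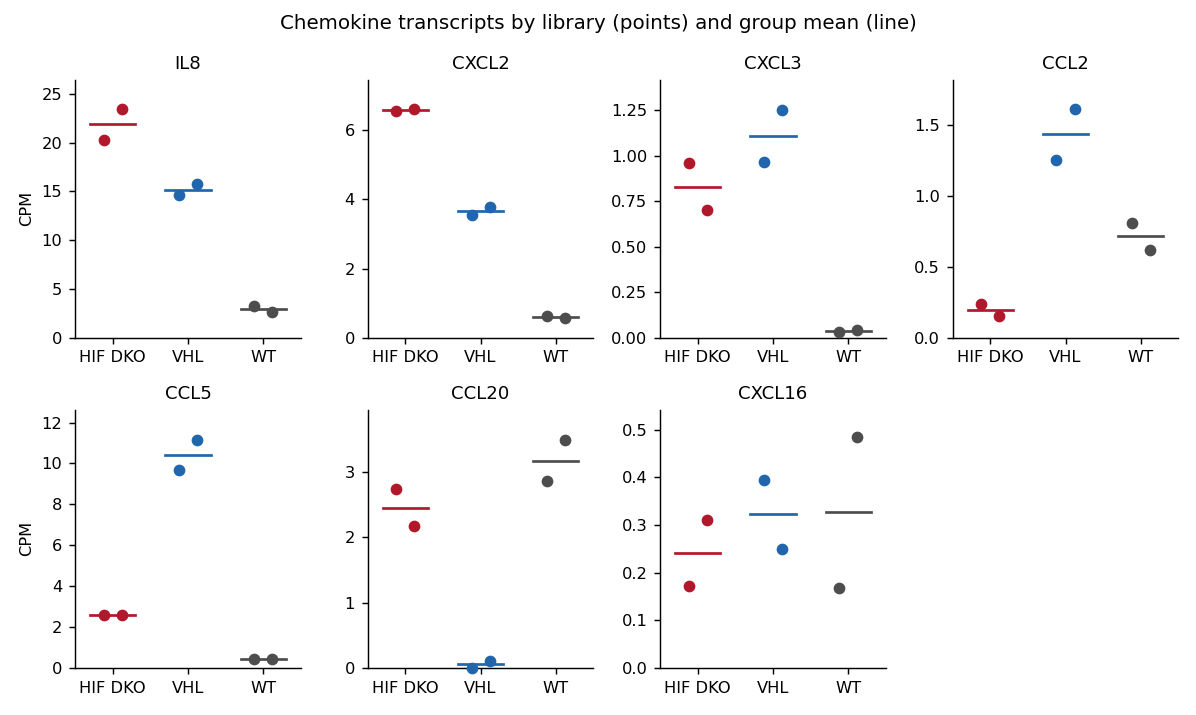
CPM (y axis, from 0, own scale per gene) of the 7 members with more than 3 counts in some group, for DKO, VHL and WT libraries (points) with the group mean (line). IL8 and CXCL2 are highest in DKO cells, CCL5 and CCL2 in VHL cells, and CCL20 is at 0 and 0.107 CPM in the VHL libraries.

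By count, 4 of the 10 members were higher and 1 was lower in DKO against WT, where 54.1% of the 18273 genes tested were called, 26.6% higher and 27.5% lower. In VHL against WT 5 were higher and 1 was lower, beside 54.2% of all genes called, 26.5% higher and 27.7% lower. In DKO against VHL 3 were higher and 2 were lower, beside 56.0% of all genes called, 28.0% in each direction. The median log2 fold change over all genes tested was 0.00 in each comparison. The first 2 comparisons share the WT libraries.

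**Figure D3:**
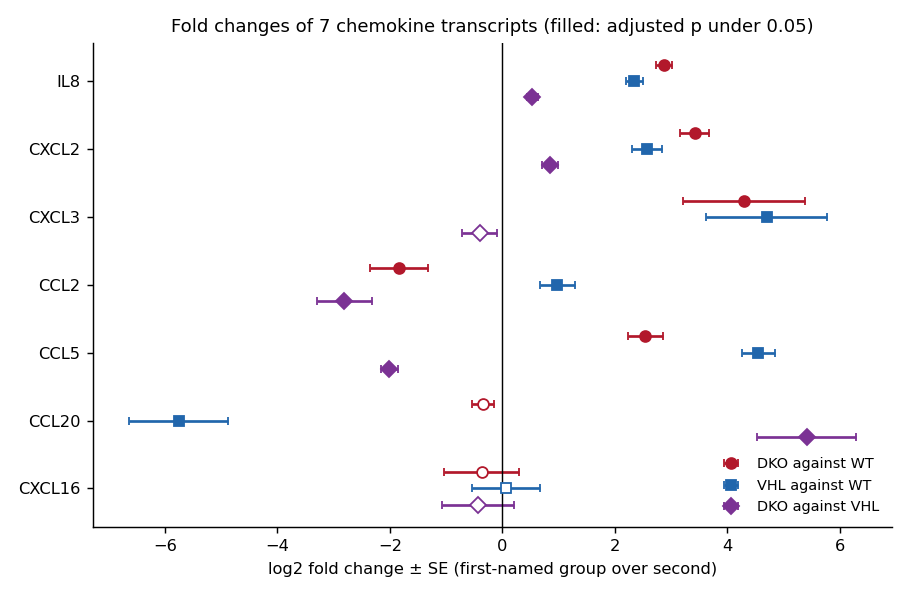
Log2 fold change ± SE (x axis) of 7 members in 3 comparisons, the first-named group over the second, with filled symbols where adjusted p was under 0.05. CCL2 lies at -1.83 for DKO against WT and 0.98 for VHL against WT, and CCL20 at -5.76 for VHL against WT; the wide bars of CXCL3 and CCL20 come with groups of 2 or 3 counts.

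Scaled to exon length (CPM per kilobase of GENCODE release 29 exons), the leading gene among the 10 members differed between the groups. In DKO cells IL8 came first at 9.62, followed by CXCL2 at 4.39, CCL5 at 1.71, CCL20 at 1.54, CXCL3 at 0.373, CCL2 at 0.0994 and CXCL16 at 0.0862. The libraries of CCL5 and CCL20 overlapped there, as did those of CCL2 and CXCL16. In VHL cells CCL5 at 6.89 and IL8 at 6.67 overlapped at the top, ahead of CXCL2 at 2.44, CCL2 at 0.720, CXCL3 at 0.499 and CXCL16 at 0.115, with CCL20 last of the 7 at 0.0336. In WT cells CCL20 led the members at 1.99, followed by IL8 at 1.29, CXCL2 at 0.405 and CCL2 at 0.359. CCL5 at 0.291, CXCL16 at 0.117 and CXCL3 at 0.0175 came after these. The chemokines CX3CL1 and CCL28, which are not members, stood above CCL20 in WT cells, at 4.84 and 3.13. The WT libraries of CXCL2 and CCL2 overlapped.

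For the 2 members with the highest mean level, IL8 and CCL5, the nearest patterns were sought among 12683 other genes with a mean of at least 1 CPM, as the distance between log2 fold changes in the first 2 comparisons over the 6 libraries. Nearest to IL8 were SOCS2 (distance 0.14), PLA2G4C (0.37) and NLRP1 (0.38). SOCS2, a feedback inhibitor of cytokine signalling, had a mean of 12.1 CPM in DKO, 8.19 CPM in VHL and 1.77 CPM in WT cells. Nearest to CCL5 were GLIPR1 (distance 0.26), EMP1 (0.27) and NTM (0.28). EMP1, an epithelial membrane protein, averaged 3.94 CPM in DKO, 20.1 CPM in VHL and 0.738 CPM in WT cells.

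Of 13 further CXC, CX3C and XC ligands 9 are in the table and 8 were tested: 1 was higher and 2 were lower in DKO against WT, and 2 were higher and 1 was lower in VHL against WT. Over all genes 54.1% and 54.2% were called in these comparisons. CXCL12, the ligand of CXCR4 and CXCR7, had 33 and 20 counts in DKO cells and 21 and 11 in VHL cells, against 315 and 219 in WT cells. It fell 10.5-fold in DKO and 17.6-fold in VHL against WT (adjusted p = 1.7e-16 and 1.6e-17, edgeR). CXCL10, an interferon-induced T cell chemokine, had 20 and 20 counts in DKO, 45 and 45 in VHL and 2 and 3 in WT cells, rising 7.31-fold and 16.1-fold (adjusted p = 3.2e-05 and 4.4e-09, edgeR). Like CCL5 it was lower in DKO than in VHL cells (log2 -1.14; adjusted p = 0.00091, edgeR).

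CX3CL1, a membrane-bound chemokine also called fractalkine, followed the order of CCL2. It was at 13.8 and 12.5 CPM in DKO, 36.0 and 35.6 CPM in VHL, and 29.2 and 28.7 CPM in WT cells. It fell in DKO against WT (log2 -1.14) and rose 1.23-fold in VHL against WT (adjusted p = 1.1e-12 and 0.0014, edgeR). Of 25 other CC ligands 17 are in the table and 15 were tested, with 1 higher and 1 lower in DKO and 0 higher and 1 lower in VHL against WT. Beside them stand 54.1% and 54.2% of all genes called. CCL28, a mucosal epithelial chemokine, was at 4.65 and 4.74 CPM in DKO, 5.65 and 4.86 CPM in VHL, and 13.8 and 14.5 CPM in WT cells, and fell 3.01-fold and 2.69-fold (adjusted p = 3.9e-13 and 3.5e-12, edgeR).

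Of 18 chemokine receptors 8 are in the table, and the receptors of the members other than CCR6 were not analysed here. Among the 8, 0 were higher and 2 were lower in DKO against WT, and 1 was higher and 2 were lower in VHL against WT. The shares over all genes were 54.1% and 54.2% called. CXCR4, the receptor of CXCL12, had 0 and 0 counts in DKO and 0 and 1 in VHL cells, against 46 and 32 in WT cells. In DKO cells it was at least 27.3-fold lower, against 3 counts over the group (adjusted p = 2.5e-09, edgeR). The VHL level was 83.4-fold lower than the WT level, with a counting interval of 14.5 to 3334 (adjusted p = 6.3e-09, edgeR). CXCR7, a scavenging receptor of CXCL12 now named ACKR3, had 11 and 10 counts in DKO and 1 and 4 in VHL cells, against 976 and 711 in WT cells. It fell 83.2-fold in DKO and 342-fold in VHL against WT (adjusted p = 2.2e-24 and 7.0e-25, edgeR). CXCL12 and both of its receptors were lower in each engineered line, whereas IL8, CXCL2 and CXCL3 were higher.

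**Figure D4:**
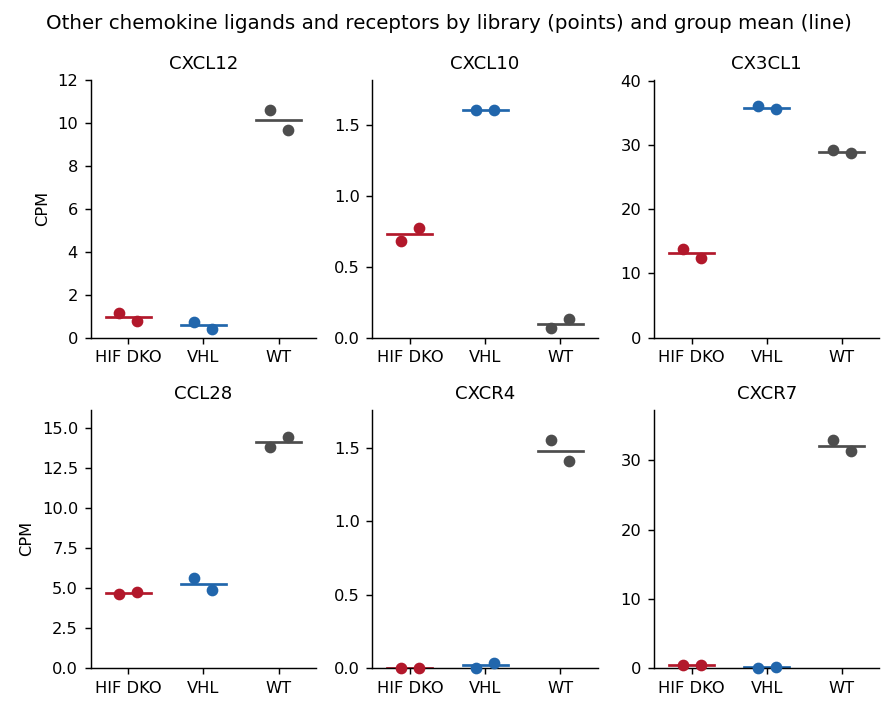
CPM (y axis, from 0, own scale per gene) of 4 further ligands and 2 receptors in DKO, VHL and WT libraries (points; lines are group means). CXCL12, CCL28, CXCR4 and CXCR7 are highest in WT cells, and CXCR7 is at 32.9 and 31.4 CPM there.

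Proteases and matrix carriers of chemokines were described from lists of 8 genes each. DPP4, a dipeptidyl peptidase that trims the amino terminus of chemokines, was at 10.2 and 11.6 CPM in DKO cells. Its levels were 33.2 and 32.4 CPM in VHL and 103 and 104 CPM in WT cells. It fell 9.52-fold in DKO and 3.16-fold in VHL against WT (adjusted p = 8.1e-25 and 1.1e-18, edgeR). Of the 8 proteases on the list 2 were higher and 4 lower in DKO, and 0 higher and 5 lower in VHL against WT, beside 54.1% and 54.2% of all genes called. MMP2, a gelatinase that can cleave chemokines, averaged 0.0536 CPM in DKO, 1.56 CPM in VHL and 11.9 CPM in WT cells, and fell 7.65-fold in VHL against WT (adjusted p = 1.0e-16, edgeR). Of 8 heparan sulfate core proteins 3 rose and 5 fell in DKO against WT (median -0.61). In VHL against WT 0 rose and 6 fell (median -0.44). The same shares of all genes, 54.1% and 54.2%, stand beside these counts. Among those that fell in both lines, GPC4 averaged 26.2 CPM in DKO, 26.4 CPM in VHL and 66.9 CPM in WT cells. SDC3 averaged 61.0, 92.0 and 148 CPM in the same order. GPC1, a glypican, averaged 115.6 ± 7.28 CPM in DKO, 46.8 ± 2.66 CPM in VHL and 53.5 ± 2.49 CPM in WT cells (SD, n = 2), a 2.17-fold rise in DKO against WT (adjusted p = 1.0e-14, edgeR).

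Cytokines able to induce chemokines included TNF, LTB and IL6. TNF, a strong activator of NF-kB, had 3 and 1 counts in DKO cells and 36 and 24 in VHL cells, against 0 and 0 in WT cells. It was at least 18.7-fold higher in VHL against WT (adjusted p = 1.3e-07, edgeR), and it was 13.9-fold lower in DKO than in VHL cells (adjusted p = 2.2e-06, edgeR). LTB, lymphotoxin beta of the same family, had 3 and 3 counts in DKO, 72 and 75 in VHL and 4 and 1 in WT cells, and rose 26.3-fold in VHL against WT (adjusted p = 1.1e-11, edgeR). IL6, a cytokine that is itself an NF-kB target, was high in DKO cells instead, with 82.7 and 80.0 CPM in DKO, 1.11 and 1.61 CPM in VHL and 1.99 and 1.59 CPM in WT cells. It rose 44.8-fold in DKO against WT (adjusted p = 8.8e-27, edgeR), and VHL against WT did not pass (log2 -0.41; adjusted p = 0.13, edgeR). The list of 12 inducers and their receptors, 10 of them tested, had 2 higher and 1 lower in DKO, and 4 higher and 2 lower in VHL against WT. The shares of all genes called were 54.1% and 54.2%.

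NF-kB feedback regulators rose in 6 of 8 cases in each line against WT and fell in 1, with a median log2 fold change of 1.48 in DKO and 0.78 in VHL. Over all genes tested 26.6% rose and 27.5% fell in DKO, and 26.5% rose and 27.7% fell in VHL against WT. TRAF1, a signalling adaptor induced by NF-kB, was at 214 and 187 CPM in DKO, 39.4 and 41.4 CPM in VHL, and 4.48 and 4.72 CPM in WT cells. NFKBIA, the inhibitor that retains NF-kB in the cytoplasm, was at 119 and 120 CPM in DKO, 43.4 and 45.8 CPM in VHL, and 27.2 and 26.0 CPM in WT cells. Both had the group order of IL8 and CXCL2, and DKO exceeded VHL 4.97-fold for TRAF1 and 2.68-fold for NFKBIA (adjusted p = 2.2e-22 and 1.3e-17, edgeR). BCL3, a nuclear cofactor of NF-kB, had the order of CCL5 instead, at 9.51 and 8.31 CPM in DKO, 25.9 and 26.4 CPM in VHL and 7.11 and 6.31 CPM in WT cells. BIRC3, an apoptosis inhibitor induced by NF-kB, rose 6.09-fold in DKO and 2.55-fold in VHL against WT (adjusted p = 6.5e-25 and 2.1e-17, edgeR).

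Of 12 NF-kB and AP-1 family genes 8 rose and 2 fell in DKO (median 0.63), and 7 rose and 2 fell in VHL against WT (median 0.44). RELB, an NF-kB subunit, was 4.30-fold higher in DKO and 2.18-fold higher in VHL against WT (adjusted p = 4.8e-19 and 1.1e-11, edgeR). NFKB2, its usual partner, rose 2.86-fold in DKO and fell 1.41-fold in VHL against WT (adjusted p = 5.0e-18 and 1.5e-06, edgeR). Of 8 factors of AU-rich mRNA turnover 5 rose in each line, 1 fell in DKO and 2 fell in VHL against WT (medians 0.25 and 0.23). Both lists stand beside 54.1% of all genes called in DKO and 54.2% in VHL against WT. ZFP36, which promotes decay of cytokine mRNAs, was at 7.93 and 7.57 CPM in DKO, 6.72 and 6.65 CPM in VHL, and 24.2 and 22.2 CPM in WT cells. It fell 2.99-fold in DKO and 3.47-fold in VHL against WT (adjusted p = 9.8e-15 and 8.4e-16, edgeR). Other factors of this list went the other way. ZFP36L1 averaged 537 CPM in DKO and 673 CPM in VHL against 451 CPM in WT cells. The averages were 29.3, 25.5 and 20.4 CPM for ZFP36L2 and 459, 497 and 348 CPM for KHSRP, in the same order. ZC3H12A was at 19.4 CPM in DKO, 9.13 CPM in VHL and 11.4 CPM in WT cells.

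**Figure D5:**
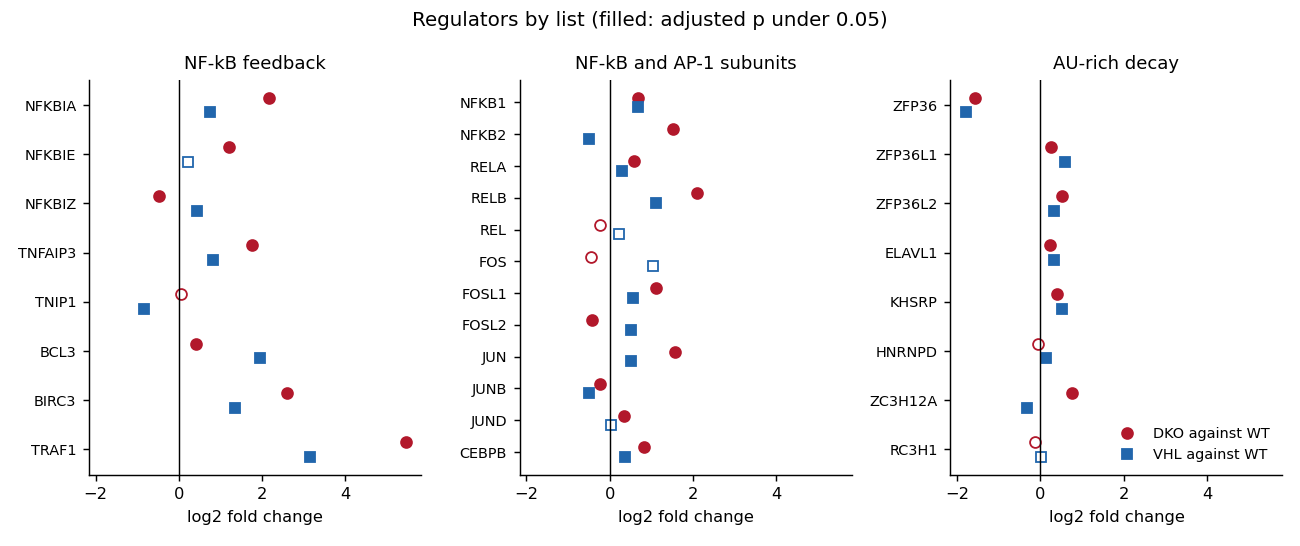
Log2 fold change (x axis) of each gene of 3 regulator lists for DKO against WT (circles) and VHL against WT (squares), filled where adjusted p was under 0.05. TRAF1 is farthest to the right at 5.45 and 3.14, and ZFP36 is at -1.58 and -1.80; the comparisons share the WT libraries.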

How the data were processed

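The authors deposited whole-number read counts per gene symbol, with 1 column per library. Although its name speaks of normalized values, the table holds integers whose library totals differ, and these were used as raw counts. The tools listed, without roles, per the submitters' notes on processing are HISAT2 2.2.1, featureCounts 2.0.8, Trimmomatic 0.39, FastQC 0.74 and limma 3.58.1, and the builds are hg38 and hg19. After removal of genes at 0 in every library, 18273 were fitted with edgeR 4.0.16 in R 4.3.3 (quasi-likelihood test, TMM scaling, 3 group means over the 6 libraries, prior count 0.125), with Benjamini-Hochberg adjustment over all of them at 0.05. DESeq2 1.42.0 was an alternative. The SE is the Wald error of that fit. A group with 0 counts gives a bound against 3 counts, and one with 1 to 3 counts a ratio with an exact 95% interval, which covers counting error only. Libraries of a group differed by more than counting error (chi-square per degree of freedom 4.76 in DKO, 6.64 in VHL and 2.69 in WT). The fit was also run on counts simulated with its own dispersions and far fewer changed genes than were called here. Such a run cannot show whether the spread between libraries is technical.

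The members and lists were chosen with earlier results of these data known. Besides the members, named from each list were up to 5 genes that reached 1 CPM in some group, by largest called change, or by level where none passed. Sequence matches used Python 3.11.15. Promoter windows and exon lengths are of GRCh38.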

Additional observations from a re-analysis of the deposited data

How the results depend on the processing

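Under 12 alternatives (DESeq2 size factors, median centring, a filter on low expression, DESeq2, fits of the compared groups alone, the replicate block, and the removal of each library in turn), 15 of 16 called member differences kept direction and call. The exception was CCL2 in VHL against WT, with a log2 fold change of 0.79 without VHL replicate 2, 0.83 without WT replicate 2 and 1.00 in DESeq2 (adjusted p = 0.093, 0.080 and 0.13 in edgeR, edgeR and DESeq2); adjusted p over the 12 ran from 0.0036 to 0.13. Uncalled CXCL16 changed sign as single libraries were left out. In DKO against WT its log2 fold change ran from -1.02 without WT replicate 1 to 0.48 without WT replicate 2, and was 0.02 without DKO replicate 1. In VHL against WT it ran from -0.58 without WT replicate 1 to 0.92 without WT replicate 2, and was -0.29 without VHL replicate 1; the cause was not tested. Where a group is left with 1 library, it is assumed to vary like the others. Median centring shifted log2 fold changes against WT by 0.05.

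Replicate numbers are shared between groups, but the labels do not say that they pair cultures, and replicate differences correlated over 12061 genes at 0.15 (DKO and WT), -0.00 (VHL and WT) and 0.02 (VHL and DKO). With the replicate block the counts of members higher and lower were 4 and 1 in DKO against WT, 5 and 1 in VHL against WT, and 3 and 2 in DKO against VHL; it changed no call of a member. Depth limits CXCL1, CXCL5 and CXCL6, for which falls and small rises were not detectable. CXCL16 had 13 counts in DKO, 18 in VHL and 16 in WT cells and passed in no comparison. Its SE of 0.61 to 0.66 on the log2 scale leaves small changes undetected. The filter on low expression removed CXCL1, CXCL5 and CXCL6, so it gave no value for them.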

Other observations

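In the RefSeq order of protein-coding genes on chromosome 4 (GRCh38.p14), the stretch between IL8 and CXCL2 holds 9 genes, 6 of them members, and the other 3 (PF4V1, PF4 and PPBP) were not analysed here. The genes just outside it were looked at after the members' values were seen. RASSF6, the neighbour on the IL8 side, had 2 and 1 counts in DKO cells, 37 and 38 in VHL cells and 9 and 7 in WT cells. Its order is that of CCL2 and not that of IL8, and it rose 4.34-fold in VHL against WT (adjusted p = 1.5e-05, edgeR). MTHFD2L, a mitochondrial folate enzyme next to CXCL2, had 62 and 74 counts in DKO, 52 and 51 in VHL and 36 and 26 in WT cells, rising 2.09-fold and 1.55-fold (adjusted p = 0.00015 and 0.025, edgeR).

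A receptor gene and a chemokine gene below 1 CPM, also picked after their values were seen, were counted in DKO cells alone among the 3 groups. CCRL2, an atypical receptor that binds chemerin, had 22 and 15 counts in DKO cells and 0 in each VHL and WT library, at least 12.5-fold higher than in VHL and 11.7-fold higher than in WT cells (adjusted p = 7.5e-06 and 1.1e-05, edgeR). CCL3, a macrophage chemokine with near-identical copies, had 8 and 9 counts in DKO cells and 0 in each VHL and WT library. The interferon-induced ligands CXCL9 and CXCL11 had 2 and 2 and 3 and 3 counts in VHL cells and 0 in each DKO and WT library, and did not pass in VHL against WT (adjusted p = 0.17 and 0.084, edgeR).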
